A study of Homo sapiens with 60 samples.

Results

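Gene expression was compared between SW1783 cells given the medium dose of a Bupleuri Radix extract and SW1783 cells given its low dose. The 6 libraries, 3 at 42 µg/mL and 3 at 8.4 µg/mL, were taken by their labels from a series of 60 libraries of herbal extracts and vehicle. SW1783 is an established human astrocytoma line, here a single line grown in Leibovitz's L-15, and every library was made after 24 h. The extract was prepared from dried Bupleuri Radix with ethanol, and both doses belong to the set of libraries numbered 13. Beside them stood 3 libraries at the high dose of 210 µg/mL, 3 libraries each of Aconiti Lateralis Radix Preparata at 100 and 20 µg/mL from set 13, and 3 vehicle libraries. The labels give the vehicle as DMSO and give it no set number. Per the labels, the high dose came from the concentration that lowered viability (IC20) and the lower doses were dilutions of it in steps of 5. The medium-against-low comparison therefore asks how expression differs over 1 such step below the high dose.

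The root of Bupleurum is a source of saikosaponins, amphiphilic triterpene saponins, and a crude extract holds many other plant compounds. Cells meet such mixtures with several known programs. Xenobiotic ligands act on the aryl hydrocarbon receptor, a transcription factor that induces cytochrome P450 genes and its own repressor. Stress on proteins, redox balance or lysosomes is read by NRF2, ATF4 and the TFEB family, which induce antioxidant, amino acid and lysosomal genes, while sterol levels set the SREBP factors that drive lipid synthesis.

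The 6 libraries held 20561000 to 27838844 counts each, and the vehicle libraries 15996157 to 20858002. Defining astrocyte markers were mostly near 0: GFAP, AQP4, SLC1A2, ALDH1L1 and S100B did not pass the filter on low counts, while SLC1A3, GJA1, SOX9 and VIM did. The summed level of the whole astrocyte list was 4670 to 5115 CPM (counts scaled to library size and TMM factor) at the medium dose and 4891 to 5282 CPM at the low dose. Summed levels of the neuron list were 168 to 170 CPM at the medium and 172 to 176 CPM at the low dose, those of the microglia and leukocyte list 197 to 201 and 178 to 198 CPM, with TYROBP and CD3E at 0, and those of the endothelial list 28.8 to 32.5 and 23.9 to 29.4 CPM. Low-dose replicate 3 stood apart from its group mates. A chi-square of its counts against theirs averaged 12.3 and 18.0 per gene, against 2.59 to 3.51 for the other pairs of replicates within the 2 groups. Across genes, its difference from replicates 1 and 2 on the log2 scale ran against transcript length (Spearman -0.56), over 13913 genes that share these libraries and are not independent. Low-dose replicates 1 and 2, each measured against group mates that include replicate 3, stood on the other side at 0.30 and 0.46. The log2 fold change of medium against low had a correlation of 0.29 with length over 16099 genes, and of -0.01 over 16333 genes without low-dose replicate 3, so the counts of calls and of list members are given with and without that library.

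Few genes differed between the medium and the low dose. Of 16204 genes tested, 6 passed an adjusted p of 0.05 with edgeR's quasi-likelihood test, which is 0.037%. FBXO32, SQSTM1, CYP1B1 and ALDH1A3 rose, and KRT18 and LRRC17 fell, all by less than 0.5 on the log2 scale. At an unadjusted p under 0.05 stood 1068 genes (6.59%), of which 580 were higher at the medium dose (3.58%) and 488 lower (3.01%). Over the 13976 genes that averaged 1 CPM or more, the median size of the log2 fold change was 0.06 for medium against low, beside 0.14 for high against medium and 0.17 for high against low. A log2 fold change beyond 0.5 was seen in 115 genes for medium against low, in 1432 for high against medium and in 1754 for high against low. Between high and medium, 4790 genes passed (29.6%). Whether the replicates came from different cultures is not stated in the labels. The p-values therefore cover the spread among these libraries and the 3 high-dose libraries of the same fit alone, and that spread may be technical. In a fit over the 6 medium-dose and low-dose libraries alone no gene passed, with edgeR adjusted p = 0.0774 for FBXO32 and 0.246 for LRRC17. In bulk RNA, fewer cells expressing a gene and less RNA per cell cannot be told apart.

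**Figure D1:**
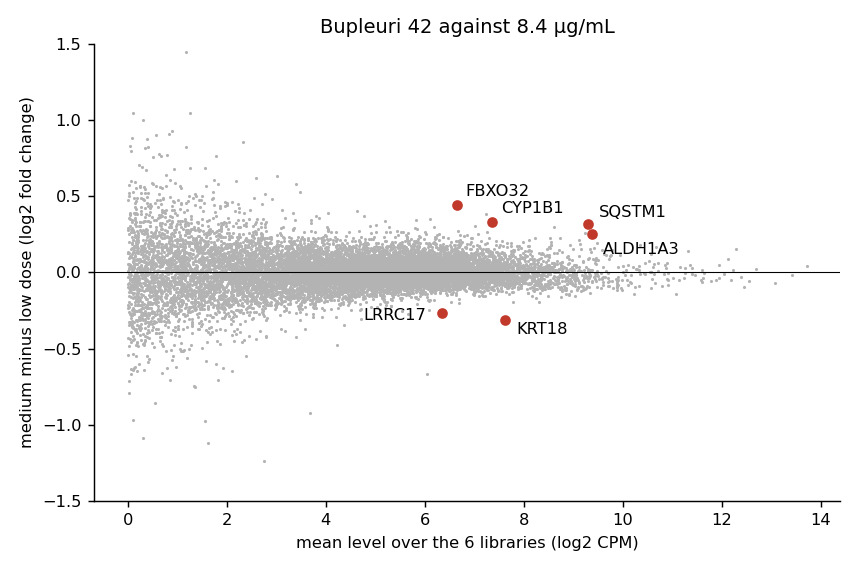
Each point is 1 gene that averaged 1 CPM or more over the 6 libraries; the x axis is the mean level in log2 CPM and the y axis the edgeR log2 fold change of the medium (42 µg/mL) against the low dose (8.4 µg/mL) of Bupleuri. The 6 genes with an adjusted p under 0.05, in red, lie between -0.31 and 0.44 while points spread more widely at low levels; 2 genes lie outside the y axis limits of 1.5 either way.

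The largest rise among the 6 genes was that of FBXO32 (ENSG00000156804, chromosome 8, 123497889 to 123541206, minus strand, GRCh38), which encodes atrogin-1, the substrate-binding subunit of a ubiquitin ligase known from muscle atrophy. It had 118, 113 and 114 CPM in medium-dose libraries and 89.2, 83.4 and 80.7 CPM in low-dose libraries. The groups did not overlap, and medium-dose libraries were 1.36-fold higher (log2 fold change 0.44 ± 0.05 SE, edgeR adjusted p = 0.00349). Separation of the groups was part of the rule that named called genes, and its share over all genes was not counted. High-dose libraries held 339, 330 and 338 CPM and vehicle libraries 95.2, 93.3 and 89.0 CPM, with the mean of the low dose under that of the vehicle.

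SQSTM1 (ENSG00000161011, chromosome 5, 179806398 to 179838078, plus strand) encodes p62, the receptor that carries ubiquitinated cargo into autophagosomes and sequesters KEAP1, the inhibitor of NRF2. It had 694, 701 and 683 CPM at the medium dose and 543, 542 and 584 CPM at the low dose. Every medium-dose library was above every low-dose library, by 1.24-fold on average (log2 fold change 0.32 ± 0.04 SE, edgeR adjusted p = 0.0170). The high-dose libraries averaged 1983 ± 29 CPM and the vehicle libraries 514 ± 23.9 CPM (SD, n = 3 each).

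CYP1B1 (ENSG00000138061, chromosome 2, 38066973 to 38109902, minus strand) encodes a cytochrome P450 of xenobiotic and oestrogen metabolism and is a classic target of the aryl hydrocarbon receptor. Its levels were 179, 179 and 190 CPM at the medium dose and 148, 147 and 140 CPM at the low dose, again without overlap (log2 fold change 0.33 ± 0.04 SE, edgeR adjusted p = 0.0270). High-dose libraries held 197, 190 and 184 CPM, a log2 fold change of 0.06 over the medium dose with a 95% interval of -0.04 to 0.16 (edgeR adjusted p = 0.359). Vehicle libraries held 162 to 164 CPM, between the low and the medium dose.

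ALDH1A3 (ENSG00000184254, chromosome 15, 100877714 to 100916626, plus strand) encodes a retinaldehyde dehydrogenase that makes retinoic acid. It had 703, 726 and 735 CPM at the medium dose and 589, 611 and 617 CPM at the low dose. The groups were separate, with a log2 fold change of 0.25 ± 0.04 SE (edgeR adjusted p = 0.0449). Here too the vehicle libraries, at 655 to 666 CPM, lay between the low and the medium dose, and the high-dose libraries at 910 to 943 CPM lay above both.

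KRT18 (ENSG00000111057, chromosome 12, 52948871 to 52952901, plus strand), the type I keratin of simple epithelia, fell. It had 177, 175 and 176 CPM at the medium dose and 216, 210 and 230 CPM at the low dose. The medium-dose libraries lay close together and below all low-dose libraries (log2 fold change -0.31 ± 0.04 SE, edgeR adjusted p = 0.0273). High-dose libraries held 52.0 to 54.6 CPM and vehicle libraries 236 to 246 CPM. KRT18 belongs to the list of epithelial markers, whose summed level was 198 to 199 CPM at the medium dose and 235 to 259 CPM at the low dose. KRT18 and KRT8 stood at an unadjusted p under 0.05 among its 5 tested members of 8, both lower. Over all genes tested, 3.01% were lower at that threshold. The defining epithelial markers EPCAM and CDH1 were at or near 0, with at most 0.0435 and 0.0487 CPM in any of the 6 libraries. The annotated spans of KRT18 and KRT8 overlap on opposite strands, and whether reads were counted by strand is not given in what was at hand. Both genes, like FTL, also have near-identical pseudogenes that could share reads.

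LRRC17 (ENSG00000128606, chromosome 7, 102912991 to 102944949, plus strand) encodes a secreted leucine-rich repeat protein that restrains osteoclast formation. It had 74.4, 75.8 and 73.0 CPM at the medium dose and 90.5, 87.3 and 90.1 CPM at the low dose. The groups did not overlap (log2 fold change -0.26 ± 0.04 SE, edgeR adjusted p = 0.0449). The high-dose libraries held 29.6 to 31.2 CPM and the vehicle libraries 95.6 to 106 CPM.

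**Figure D2:**
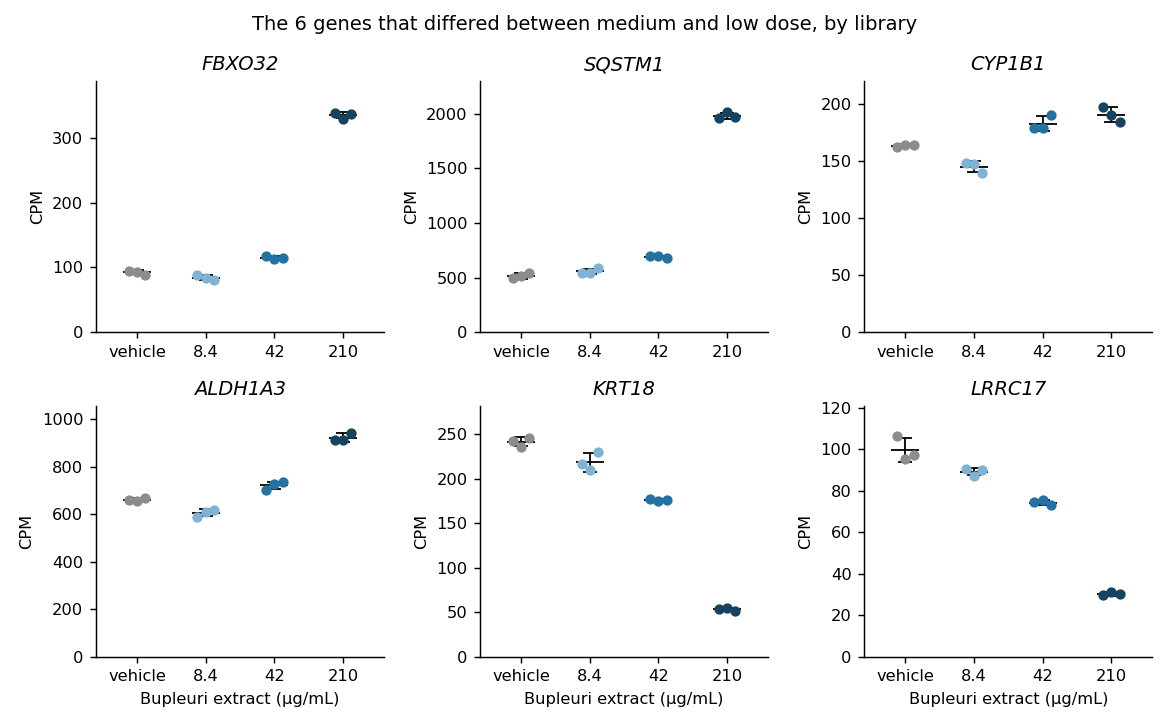
Level of the 6 called genes in every library, in CPM, for the vehicle and Bupleuri at 8.4, 42 and 210 µg/mL; points are libraries, the horizontal dash is the mean and the bar the SD of 3 libraries. In each panel the points at 42 µg/mL are clear of those at 8.4 µg/mL, and CYP1B1 at 42 µg/mL reaches the range of 210 µg/mL.

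FBXO32 kept its call in 8 of 9 fits that left out 1 of the 9 Bupleuri libraries, and lost it without medium-dose replicate 1 (edgeR adjusted p = 0.0611). SQSTM1, CYP1B1, ALDH1A3, KRT18 and LRRC17 kept theirs in 2 of the 9, those without low-dose replicate 2 and without low-dose replicate 3, and their adjusted p ran up to 0.406 in the others, without medium-dose replicate 3. Their log2 fold changes moved little: over the 9 fits SQSTM1 ran from 0.30 to 0.35 and KRT18 from -0.34 to -0.27. Without low-dose replicate 3, 16 of 16443 genes passed (0.0973%), 10 higher and 6 lower at the medium dose, with all 6 genes above among them. Among the other 10 were HMOX1, SERPINB2, STC2, PLIN2, FTL and HHAT, which were higher, and SCD, FADS2 and AMIGO3, which were lower. HMOX1, the haem-degrading enzyme, had a log2 fold change of 0.41 (edgeR adjusted p = 0.00119) there, and SCD, the stearoyl-CoA desaturase, -0.24 (edgeR adjusted p = 0.00353). AMIGO3 was listed at 0 in the 3 medium-dose libraries and at 0.422, 1.00 and 0.464 CPM in low-dose libraries.

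Against the vehicle, the 2 doses can be set side by side, though set and treatment cannot be told apart there. The medium dose differed from the vehicle in 3173 of 16342 genes (19.4%) and the low dose in 3931 (24.1%). The order of these counts turned in other fits, with 4586 at the medium and 3584 at the low dose without low-dose replicate 3, and 4833 and 2161 with only the groups compared. The count at the medium dose was 1774 without vehicle replicate 1, 1890 without vehicle replicate 2, 1975 without medium-dose replicate 1 and 2027 without medium-dose replicate 2. That at the low dose was 2408 without vehicle replicate 1 and 2519 without vehicle replicate 2. FBXO32 stood at a log2 fold change of 0.31 over the vehicle at the medium dose (edgeR adjusted p = 0.000406) and at -0.13 at the low dose (edgeR adjusted p = 0.0418). CYP1B1 stood at 0.16 at the medium dose and -0.17 at the low dose, and ALDH1A3 at 0.13 and -0.12. These 3 genes thus lay above the vehicle at the medium dose and below it at the low dose. SQSTM1 was above the vehicle at both doses, by 0.43 and 0.11, and KRT18 below it at both, at -0.46 and -0.14. LRRC17 was at -0.42 and -0.16.

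High dose against vehicle compares groups that share no library with those of medium against low dose. Both tests took their spread from fits that held the 9 Bupleuri libraries, so passing in 1 is not independent of passing in the other. In high against vehicle, 3370 of 16342 genes were higher at the high dose (20.6%) and 3086 lower (18.9%). All 6 called genes passed there with the same sign, at log2 fold changes of 1.86 for FBXO32, 1.95 for SQSTM1, 0.22 for CYP1B1, 0.48 for ALDH1A3, -2.18 for KRT18 and -1.71 for LRRC17. Of the 60 genes with the smallest p for medium against low, 54 had the same sign in high against vehicle and 49 also passed there. Of all 16170 genes tested in both, 8999 had the same sign (55.7%) and 4075 also passed there (25.2%). Among the 60 that went the other way was ABCG2, the drug efflux pump, with 43.2, 45.4 and 46.7 CPM at the medium dose and 38.2, 39.3 and 40.3 CPM at the low dose. Its log2 fold change was 0.20 for medium against low and -0.02 for high against vehicle (edgeR adjusted p = 0.756).

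**Figure D3:**
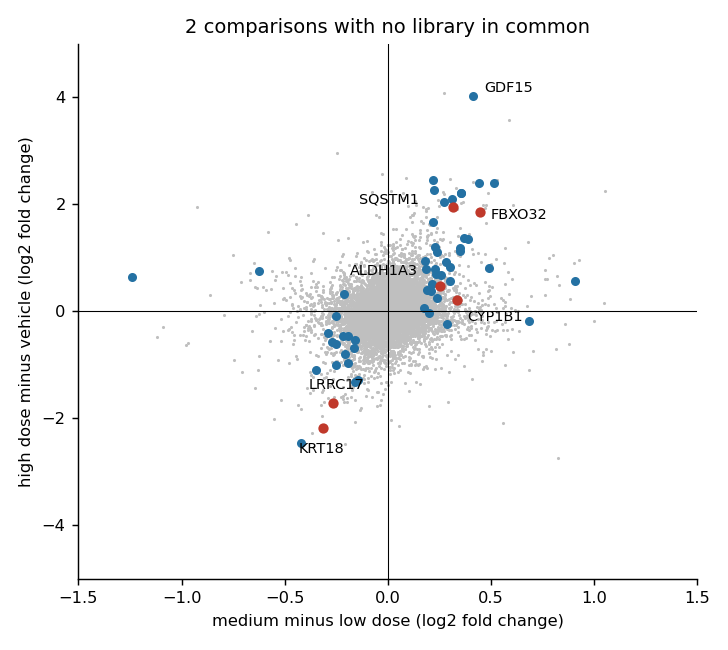
Log2 fold change of high dose against vehicle (y axis) plotted against that of medium against low dose (x axis), for genes that averaged 1 CPM or more. The groups of the 2 comparisons share no library, but both tests took their spread from fits that held the 9 Bupleuri libraries. Grey points are all such genes, blue points are those among the 60 with the smallest p for medium against low, and red points are the 6 called genes, which lie in the upper right or the lower left; GDF15 reaches 4.04 on the y axis at 0.41 on the x axis. Outside the axis limits lie 4 genes.

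Genes known for large differences at the high dose were looked at whatever their call. HMOX1 had 75.2, 78.2 and 77.4 CPM at the medium dose and 60.9, 55 and 64.7 CPM at the low dose. The groups did not overlap, and its log2 fold change of 0.35 ± 0.06 SE missed the threshold (edgeR adjusted p = 0.0574). GDF15, a stress-induced cytokine of the TGF-beta family, had 6.72, 6.66 and 5.75 CPM at the medium dose and 4.52, 4.43 and 5.28 CPM at the low dose. It was separate between the groups too (log2 fold change 0.41 ± 0.09 SE, edgeR adjusted p = 0.324), beside 73.5 to 75.0 CPM at the high dose. The share of all genes that separate in this way was not counted, here or for the genes below. GPNMB, a lysosomal glycoprotein, was at 29.6, 27 and 26.5 CPM at the medium dose and 23.4, 22.3 and 22.9 CPM at the low dose (log2 fold change 0.27, edgeR adjusted p = 0.199). LGR6, a receptor for R-spondins, was at 5.55, 6.46 and 5.71 CPM and 8.19, 7.26 and 8.32 CPM in the same order (log2 fold change -0.42, edgeR adjusted p = 0.420).

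Most other genes set by name overlapped between the medium and the low dose. Not all of them differed much at the high dose. High against medium had a log2 fold change of -0.05 for HMGCS1 and 0.18 for ARRDC4. ATP2A3, a calcium pump of the endoplasmic reticulum, had 3.12 to 3.69 CPM at the medium dose and 2.56 to 3.13 CPM at the low dose, beside 36.3 to 39.9 CPM at the high dose. KRT75 (log2 fold change 0.47), KCP (-0.00), RRAGD (0.16) and LHX9 (-0.21) also overlapped, and all but LHX9 stood under 1 CPM in each of the 6 libraries. CDH9, a cadherin, did not overlap at 0.633 to 1.29 CPM and 1.48 to 1.70 CPM at the medium and the low dose, with a log2 fold change of -0.55 and a 95% interval of -1.09 to -0.01. The stress gene DDIT3 was at 23.9 to 26.3 CPM at the medium dose and 23.9 to 26.8 CPM at the low dose, with an interval of -0.15 to 0.11 for its log2 fold change, and it had 53.5 to 55.6 CPM at the high dose. CDKN1A (0.09), IL6 (-0.06), TXNIP (0.02), ARRDC4 (-0.17), HMGCS1 (-0.05) and CYP1A1 (0.00) overlapped between the groups and did not pass. MKI67, a proliferation marker, had 262 to 276 CPM at the medium dose, and 258, 290 and 157 CPM at the low dose, where replicate 3 stood far below the others.

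The aryl hydrocarbon receptor list had a median log2 fold change of 0.17 over 6 tested of 7, all positive, beside 0.00 over all genes tested. CYP1B1 was its 1 called member, and AHRR and TIPARP stood with it at an unadjusted p under 0.05. Over all genes tested, 3.58% were higher and 3.01% lower at that threshold, and 3.1% and 2.63% without low-dose replicate 3. AHRR, the repressor of the receptor, had 53.6, 53.7 and 55.2 CPM at the medium dose and 45.9, 48.2 and 44.0 CPM at the low dose. It did not overlap between the groups (log2 fold change 0.24 ± 0.05 SE, edgeR adjusted p = 0.185). TIPARP, a target gene whose product modifies the receptor, had 45.3, 43.5 and 47.4 CPM at the medium dose and 39.9, 39.2 and 37.2 CPM at the low dose, with a log2 fold change of 0.23 (edgeR adjusted p = 0.348). CYP1A1, the best known target, stood near 1 CPM in all 6 libraries. Without low-dose replicate 3 the list's median was 0.19, with 4 members positive and 2 negative, the 4 at an unadjusted p under 0.05 and higher, and CYP1B1 called.

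Genes that sense amino acids at the lysosome differed by little and none passed the test. Of 12 tested members of the Rag GTPase, folliculin and sestrin list, 9 were positive and 4 stood at an unadjusted p under 0.05, all higher. The median log2 fold change was 0.13 (0.07 without low-dose replicate 3). Over all genes tested, 3.58% were higher at the unadjusted threshold. FNIP1, a folliculin partner, had 62.8, 63.3 and 62.5 CPM at the medium dose and 52.7, 55.2 and 47.5 CPM at the low dose (log2 fold change 0.28, edgeR adjusted p = 0.148). RRAGC, a Rag GTPase, had 60.8, 65.3 and 65.1 CPM at the medium dose and 55.5, 53.5 and 53.1 CPM at the low dose (0.24, edgeR adjusted p = 0.185). Both were separate between the groups. FNIP2 and FLCN were the other members past the unadjusted threshold, and FLCN overlapped between the groups.

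Promoter windows from RefSeq (GRCh38.p14, 250 bases before to 50 after an annotated start) are shown for AHRR, FNIP1 and RRAGC, because they hold a motif of a factor known to act on genes of their list. A set of 5 motifs were searched on both strands in 35116 windows: TNGCGTG of the aryl hydrocarbon receptor, in 5.51% of the windows, the E-box CACGTG that TFEB binds, in 7.26%, the antioxidant response element TGACNNNGC, in 13.3%, the sterol response element TCACNCCAC, in 1.13%, and TGATGNAA of ATF4, in 3.62%. AHRR had TNGCGTG 32 bases before the start of 1 of its windows (chr5:321464-321763, plus strand). FNIP1 had CACGTG at 175 and 94 bases before the start (chr5:131796968-131797267, minus strand). RRAGC had CACGTG at 112 bases before the start, and TGACNNNGC from 108 bases before it, which share bases (chr1:38859723-38860022, minus strand). Capitals mark the motif matches.
AHRR: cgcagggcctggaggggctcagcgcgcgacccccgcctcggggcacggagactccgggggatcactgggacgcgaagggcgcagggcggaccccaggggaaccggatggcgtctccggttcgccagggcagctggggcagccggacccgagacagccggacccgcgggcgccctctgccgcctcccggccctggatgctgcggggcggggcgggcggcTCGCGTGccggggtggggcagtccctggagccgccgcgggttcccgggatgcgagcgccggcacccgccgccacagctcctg
FNIP1: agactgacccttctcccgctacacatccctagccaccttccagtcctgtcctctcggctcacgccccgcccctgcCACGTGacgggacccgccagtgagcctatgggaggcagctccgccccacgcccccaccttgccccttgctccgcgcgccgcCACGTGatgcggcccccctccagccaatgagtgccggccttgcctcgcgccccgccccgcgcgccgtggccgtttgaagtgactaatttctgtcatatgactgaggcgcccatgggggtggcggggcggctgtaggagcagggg
RRAGC: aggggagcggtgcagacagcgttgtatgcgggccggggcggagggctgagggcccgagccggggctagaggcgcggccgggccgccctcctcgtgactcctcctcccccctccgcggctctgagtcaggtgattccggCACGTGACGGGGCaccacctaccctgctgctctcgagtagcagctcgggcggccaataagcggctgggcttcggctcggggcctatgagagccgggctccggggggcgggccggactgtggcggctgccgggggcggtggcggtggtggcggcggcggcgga
The windows of SQSTM1, ALDH1A3 and LRRC17 held none of the 5 motifs. No window was at hand for CYP1B1, KRT18 and HMOX1, and FBXO32 was not searched. Some matches were to motifs of other lists. STC2 had TNGCGTG 231 bases before the start and TGACNNNGC from 19 bases after it, but no TGATGNAA. TIPARP had TCACNCCAC 86 bases before 1 of its starts and PLIN2 had CACGTG 69 bases before its start. The window of GDF15 held none of the 5. TNGCGTG was absent from the windows of TIPARP, and CACGTG from those of GPNMB and NPC1. TCACNCCAC was absent from those of FADS2, SREBF1, SCD, STARD4 and DHCR7. Over the lists, CACGTG was in 3 of 13 windows of the Rag list (23.1%), in 5 of 18 of the lysosome list (27.8%) and in 3 of 12 of the V-ATPase list (25%). TNGCGTG was in 2 of 8 windows of the aryl hydrocarbon receptor list, and TCACNCCAC in 1 of 19 of the cholesterol list and 0 of 14 of the fatty acid list. TGACNNNGC was in 6 of 16 windows of the NRF2 list (37.5%) and TGATGNAA in 4 of 28 of the ATF4 list (14.3%). These matches describe letters in the windows and say nothing of binding.

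Lysosomal genes were mostly on the positive side, by little. Of 23 tested members of the lysosome list, 20 were positive with a median log2 fold change of 0.03, and 4 stood at an unadjusted p under 0.05, all higher, among them SQSTM1, GPNMB and NPC1. SQSTM1 was called. NPC1, which exports cholesterol from lysosomes, had 199, 203 and 205 CPM at the medium dose and 184, 186 and 156 CPM at the low dose, with low-dose replicate 3 the lowest (log2 fold change 0.21, edgeR adjusted p = 0.610). Among 16 subunits of the V-ATPase, the lysosomal proton pump, 4 passed the unadjusted threshold and were higher, and the median was 0.02. Over all genes tested, 3.58% were higher at that threshold. Without low-dose replicate 3, 6 of 23 lysosomal genes and 6 of 16 V-ATPase genes were past it and higher, where 3.1% of all genes were higher and 2.63% lower, with medians of 0.06 and 0.06.

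Genes of the cholesterol list were on the negative side, by little. All 20 tested members had a negative log2 fold change, with a median of -0.06 and a range of -0.21 to -0.02, and 8 stood at an unadjusted p under 0.05. Over all genes tested the median was 0.00, and 3.01% were lower at that threshold. None of the 20 was called. STARD4, a sterol carrier, had 36.2, 32.6 and 34.4 CPM at the medium dose and 41.1, 41.0 and 37.4 CPM at the low dose (log2 fold change -0.21, edgeR adjusted p = 0.597). Without low-dose replicate 3, 16 of the 20 were negative and 8 stood below the unadjusted threshold, where 2.63% of all genes were lower. HMGCS1 did not pass.

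FADS2 and SREBF1 of the fatty acid list ranked 9 and 10 by p among all genes. FADS2, a fatty acid desaturase, had 61.5, 62.3 and 62.7 CPM at the medium dose and 72.9, 74.8 and 74.0 CPM at the low dose. The groups lay well apart (log2 fold change -0.25 ± 0.04 SE, edgeR adjusted p = 0.0574). SREBF1, the factor that drives fatty acid synthesis, had 47.0, 45.2 and 44.8 CPM at the medium dose and 53.6, 53.7 and 57.9 CPM at the low dose (log2 fold change -0.27, edgeR adjusted p = 0.126). SCD had 209, 206 and 203 CPM and 247, 240 and 220 CPM in that order (-0.19, edgeR adjusted p = 0.357). These were the 3 of 10 tested members at an unadjusted p under 0.05, while 5 of the 10 were positive and the median was -0.02. Over all genes tested, 3.58% were higher and 3.01% lower at that threshold, and 3.1% and 2.63% without low-dose replicate 3. Without low-dose replicate 3, 9 of the 10 were negative with a median of -0.10, 5 stood past the unadjusted threshold and lower, and SCD and FADS2 were called. PLIN2, the lipid droplet coat protein, went the other way with 79.0, 81.4 and 80.0 CPM at the medium dose and 70.1, 67.2 and 68.6 CPM at the low dose (log2 fold change 0.22 ± 0.04 SE, edgeR adjusted p = 0.135). It was 1 of 3 among 7 tested genes of the PPAR list past the unadjusted threshold, with ANGPTL4 and CPT1A, all higher, and the median was 0.13. In the fit that left out low-dose replicate 3 all 7 were positive with a median of 0.21, 2 were past that threshold, and PLIN2 was called.

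Among 19 tested genes of the NRF2 list, HMOX1, TXNRD1, SLC7A11 and OSGIN1 were higher and AKR1C1 lower at an unadjusted p under 0.05, and the median was 0.03. With low-dose replicate 3 left out, 6 were higher and none lower, the median was 0.02 and HMOX1 was called. Among 21 genes of the ATF4 list, STC2, GDF15, SLC7A11 and SLC7A5 were higher, 12 were positive and the median was 0.02. Over the same 21 genes without that library, 17 were positive, 5 were past the unadjusted threshold and higher, the median was 0.05 and STC2 was called. STC2, a secreted glycoprotein induced by ATF4, had 593, 598 and 600 CPM at the medium dose and 527, 529 and 518 CPM at the low dose (log2 fold change 0.19 ± 0.04 SE, edgeR adjusted p = 0.148). SLC7A11, the cystine carrier, belongs to both lists and stood at 0.24. For both lists, the shares over all genes tested were 3.58% higher and 3.01% lower at the unadjusted threshold. They were 3.1% and 2.63% without low-dose replicate 3. The ER chaperone list had no member past the unadjusted threshold among 16, and 14 were negative with a median of -0.05 (13 and -0.01 without low-dose replicate 3).

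Other keratins with lower levels at the medium dose stood beside KRT18. KRT8, its partner in simple epithelial filaments, had 17.6, 18.8 and 18.2 CPM at the medium dose and 22.1, 22.4 and 25.1 CPM at the low dose. The groups did not overlap (log2 fold change -0.35 ± 0.06 SE, edgeR adjusted p = 0.137). KRT7 had 614, 626 and 609 CPM at the medium dose and 655, 648 and 730 CPM at the low dose, with low-dose replicate 3 the highest (-0.14, edgeR adjusted p = 0.740). Of the 10 tested members of the keratin list, 2 were positive and 8 negative, with a median of -0.09. Without low-dose replicate 3, 7 of the 11 then tested were positive and 4 negative, with a median of 0.02. Of the matrix list, COL1A2, COL3A1 and ACTA2 were past the unadjusted threshold and lower among 17, and 3 were without low-dose replicate 3. The mitotic list had a median of 0.00 with 1 of 16 past it, CDK1, which was lower, and of -0.02 with 2 past it and lower without low-dose replicate 3. Of the inflammatory NF-kB list, TNFAIP3, ICAM1, LIF and IL1B were past the unadjusted threshold and higher among 11, with a median of -0.03, and 4 of 12 were without low-dose replicate 3, with a median of -0.01. Of the calcium store list, ITPR3, ITPR1, ATP2B4 and ATP2A3 were higher among 14, and 1 of 14 without low-dose replicate 3. Of the hypoxia and glycolysis list, NDRG1, VEGFA and ADM were higher and CA9 lower among 16, and without low-dose replicate 3, 3 were higher and none lower. Ribosomal protein genes had a median of -0.08 with none of 17 past it, and of -0.01 without low-dose replicate 3. At that threshold 3.58% of all genes were higher and 3.01% lower, and 3.1% and 2.63% without that library.

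**Figure D4:**
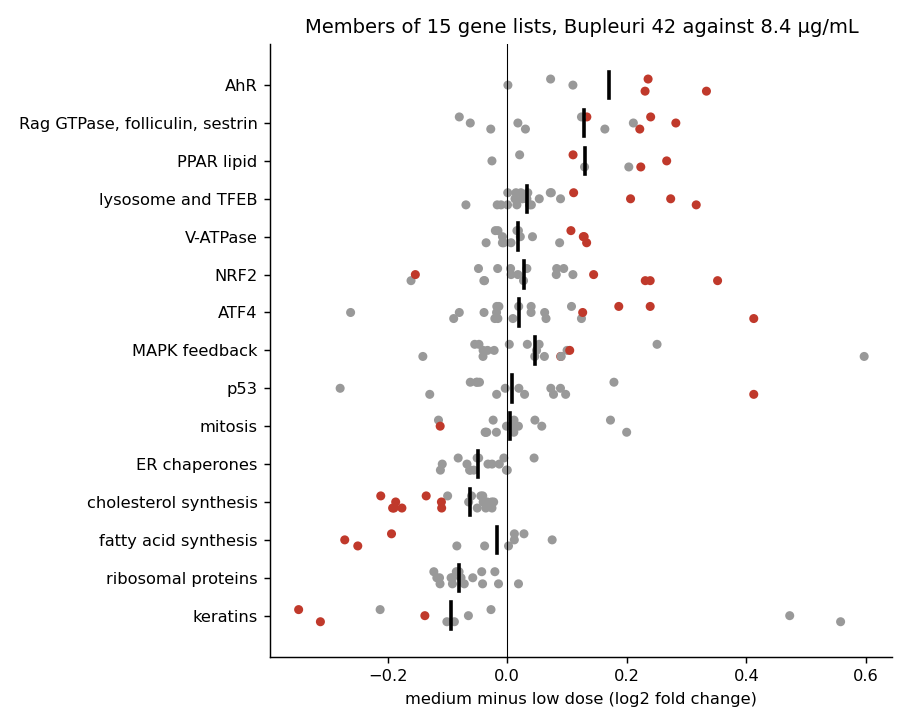
Log2 fold change of medium against low dose (x axis) for every tested member of 15 gene lists (y axis), 1 point a gene; red marks an unadjusted p under 0.05, the black bar is the list median and the vertical line is 0. The aryl hydrocarbon receptor list has a median of 0.17, and the 20 cholesterol genes all lie left of 0, of which 16 did without low-dose replicate 3.

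The same step of dose was set against that of Aconiti, the other extract of set 13, in a test of the difference itself. Of 16402 genes tested, 2 passed (0.0122%), HMOX1 and KRT18, while 1121 stood at an unadjusted p under 0.05. HMOX1 had 75.2, 78.2 and 77.4 CPM at the medium and 60.9, 55 and 64.7 CPM at the low dose of Bupleuri, and 264, 259 and 272 CPM at the medium and 107, 100 and 111 CPM at the low dose of Aconiti. The log2 fold change of medium against low was 0.35 for Bupleuri and 1.32 for Aconiti, and the difference was -0.97 ± 0.07 SE (edgeR adjusted p = 1.67e-05). KRT18 had 212, 215 and 212 CPM at the medium and 204, 202 and 207 CPM at the low dose of Aconiti. Its log2 fold change there was 0.06, and the difference of Bupleuri from Aconiti was -0.37 ± 0.05 SE (edgeR adjusted p = 0.0267). The difference for HMOX1 passed in all 12 fits that left out 1 library, and that for KRT18 in those without Bupleuri low-dose replicate 2 or 3.

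FBXO32 and SQSTM1 did not pass in that test. The called genes were picked by their difference and separation in the same Bupleuri libraries, and no such choice was made on Aconiti. That choice can make the differences below too large, and their intervals do not allow for it. FBXO32 had 80.7, 76.7 and 85.9 CPM at the medium and 82.4, 94.3 and 80.5 CPM at the low dose of Aconiti, which overlapped. The difference of Bupleuri from Aconiti was 0.52 with a 95% interval of 0.34 to 0.69 (edgeR adjusted p = 0.0694). SQSTM1 had 559, 552 and 543 CPM and 546, 563 and 535 CPM at the medium and the low dose of Aconiti, again overlapping, with a difference of 0.30 and an interval of 0.19 to 0.41 (edgeR adjusted p = 0.0888). For CYP1B1 the difference was 0.21 (0.09 to 0.33), for ALDH1A3 0.07 (-0.03 to 0.18) and for LRRC17 -0.16 (-0.29 to -0.04), with edgeR adjusted p from 0.711 to 0.734. ALDH1A3 was at 659, 657 and 684 CPM at the medium and 583, 593 and 596 CPM at the low dose of Aconiti, so that its Aconiti groups were separate as well.

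**Figure D5:**
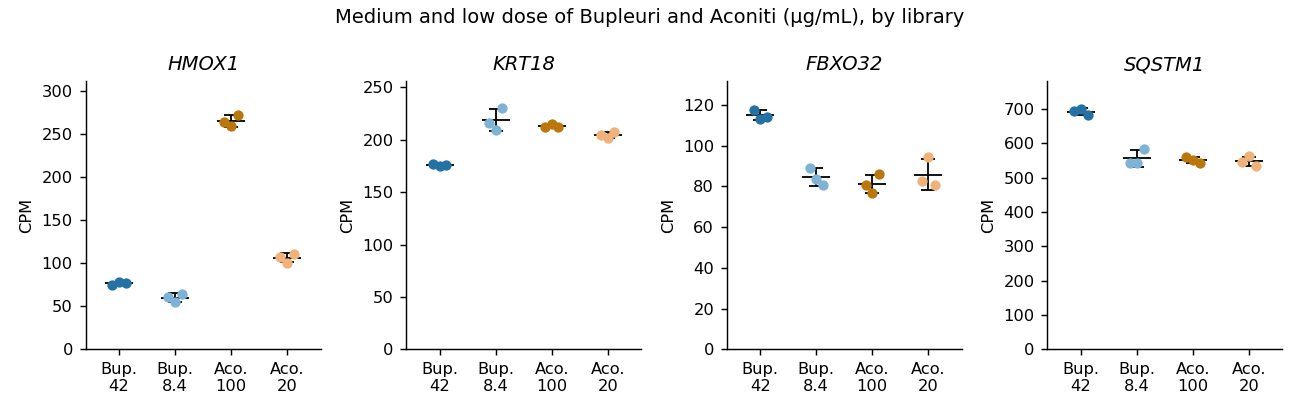
Level in CPM of HMOX1, KRT18, FBXO32 and SQSTM1 in every library at the medium and low dose of Bupleuri (42 and 8.4 µg/mL) and of Aconiti (100 and 20 µg/mL); points are libraries, the dash is the mean and the bar the SD of 3 libraries. HMOX1 separates the doses of both extracts and is at 259 to 272 CPM at the medium dose of Aconiti. KRT18, FBXO32 and SQSTM1 separate the doses of Bupleuri, as the rule for naming called genes required, and no such rule was applied to Aconiti. FBXO32 and SQSTM1 overlap between those of Aconiti, while KRT18 separates them the other way, with higher levels at the medium dose.

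In a wider fit over 55 libraries of the series, which leaves out 2 libraries unlike the others of their groups, 61 of 18208 genes passed for medium against low (0.335%), 48 higher and 13 lower, again with all 6 genes above. HMOX1 (edgeR adjusted p = 0.000185), STC2, ITPR3, KRT8, FNIP1, RRAGC, GPNMB, NPC1, PLIN2, FADS2 and SCD were among the 61. ITPR3, a calcium release channel, had 178, 185 and 191 CPM at the medium dose and 149, 165 and 121 CPM at the low dose, where replicate 3 was again the lowest. In fits over all 57 replicated libraries or over the 6 libraries alone no gene passed with edgeR, with 262 and 773 genes at an unadjusted p under 0.05. DESeq2 called 26 in the 9 libraries.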

How the data were processed

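RNA of SW1783 cells was sequenced as paired ends after a strand-marking library preparation, per the labels' protocols. The authors deposited a table of expected counts on hg38. The submitters' processing notes name RSEM 1.3.3 and STAR 2.7.3a, with Trim Galore 0.6.5 and FastQC 0.11.9; annotation and strand setting are not given in the sources at hand. Counts were rounded to whole numbers, 9.18% of values not being whole. The 9 Bupleuri libraries entered 1 fit without a replicate block: filterByExpr (minimum count 10), TMM, glmQLFit and glmQLFTest of edgeR 4.0.16 in R 4.3.3, with Benjamini-Hochberg adjustment over all genes tested and a threshold of 0.05. Comparisons with the vehicle used 12 libraries, and the difference from Aconiti the 12 libraries of both extracts at the medium and low dose. The standard error is the log2 fold change divided by the root of F. Printed CPM come from 1 TMM scaling over 18 libraries. DESeq2 1.42.0, other normalizations, filters and sets of libraries, and leaving out each library, were alternatives. The edgeR test was tried on counts simulated from the spread of the same fit. Such counts hold no shift like that of low-dose replicate 3, so they cannot show how the test fares with it. Gene positions come from GENCODE v29, which held 57055 of the 60675 genes. Vehicle DMSO shares differ between the sample labels and the series text.

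Named genes were those that passed the threshold, averaged 1 CPM or more and did not overlap between groups, up to 15 each way, called members of each list, and 20 genes set by name. Genes outside that rule were chosen after their values were seen: the others in text are listed by p or as list members at an unadjusted p under 0.05. The members, lists and tests were chosen with earlier results of these data known. Same-numbered replicates did not deviate together (correlations -0.06 to 0.09), so the numbers were not taken as pairs. Totals limit precision, and counting error alone does not cover the spread between libraries. Some genes are not reported here.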

Additional observations from a re-analysis of the deposited data

Results flagged for a closer look

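The log2 fold change of medium against low dose differed between Bupleuri and Aconiti in 2 genes by the test of the difference itself. HMOX1 had a difference in log2 fold change of -0.97 (0.35 for Bupleuri, 1.32 for Aconiti). KRT18 had a difference of -0.37 (-0.31 for Bupleuri, 0.06 for Aconiti).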

How the results depend on the processing

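For medium against low, 6 genes were called with TMM, with DESeq2 size factors and with a filter of 1 CPM in 3 libraries. DESeq2 called 26 and the fit of 55 libraries 61. Without a filter 265 were called, of which 55 had a library at 0 and 55 a mean under 1 CPM. No gene was called over 57 libraries (262 at an unadjusted p under 0.05) or over the groups compared alone (773), and leaving out 1 library gave 0 to 16 (743 to 2557 at an unadjusted p under 0.05); the cause was not tested. The numbers did not pair the libraries, and a replicate block left 1 call, FBXO32. For the difference from Aconiti, main 2, DESeq2 gave 6, no filter 191, the replicate block 1, 57 libraries 1, 55 libraries 15 and leaving out 1 library 1 to 10. Against the vehicle, 57 libraries gave 2477 calls at the high, 45 at the medium and 33 at the low dose. The groups compared alone gave 4833 at the medium and 2161 at the low dose. Leaving out 1 library gave 5355 to 7429 at the high, 1774 to 4586 at the medium and 2408 to 4327 at the low dose.

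Genes near 0 turned sign. KCP was at 0.0022 without a filter. CYP1A1 was at -0.0074 with the replicate block, -0.0034 over 57 and -0.0017 over 55 libraries. Leaving out 1 library gave ranges of -0.13 to 0.13 for KCP, -0.0326 to 0.0814 for TXNIP, -0.0662 to 0.0357 for DDIT3, -0.165 to 0.0233 for IL6, -0.194 to 0.167 for CYP1A1 and -0.0224 to 0.380 for MKI67. The 6 called genes kept their direction in all these settings.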
